A study of Homo sapiens with 2 samples.

Results

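The expression of 9 genes of the megakaryocyte lineage was examined in K562, a human line of erythroid leukemia cells with a BCR-ABL1 fusion gene. They are the integrin chains ITGA2B and ITGB3, the receptor genes GP9 and F2R, the tetraspanin CD9, the transcription factors RUNX1 and MEIS1, and the granule genes NBEAL2 and RAB27B. The genes were chosen by name from what they are known to do in megakaryocytes, with earlier results of these data known. They were matched by symbol and Entrez ID to the deposited gene table of 25702 genes. All 9 were found there, and 7 of them reached the level set for a measured gene. RNA sequencing compared K562 cells kept in 1 µM cabozantinib (XL184), a multikinase inhibitor whose targets include MET and VEGF receptors, with K562 cells kept in the solvent DMSO, each for 48 h. Both groups were asynchronous cells of the same line grown in RPMI with serum, and each held 1 library. No difference therefore has a replicate check or a p-value, and every interval below covers counting error only.

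Megakaryocytes are the bone marrow cells that release platelets. They share a progenitor with red cells, and transcription factors such as GATA1 and RUNX1 act in both lineages. A maturing megakaryocyte places the integrin made of the ITGA2B and ITGB3 chains, which binds fibrinogen, on its surface beside the von Willebrand factor receptor, of which GP9 is a subunit. It also fills the granules that platelets later secrete. K562 cells can be driven along either lineage by inducing agents, and their starting state is mainly erythroid.

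The cabozantinib library held 25505289 counts and the DMSO library 25025243. Levels are given in CPM, counts out of 1000000 on library sizes scaled with TMM factors. A gene is referred to as measured where either library reached 1 CPM, as 12536 genes did. The lineage labels were checked on marker lists. Of 14 megakaryocyte markers 7 had 0 counts in both libraries, among them GP1BA, GP1BB, GP5, GP9, PF4 and VWF, and 4 were measured. The 14 summed to 571 CPM with cabozantinib and 294 CPM in DMSO, of which NFE2, a factor of red cells too, made up 448 and 267 CPM and TUBB1, a beta-tubulin, 115 and 11.6 CPM. Of the 4 measured ITGB3, TUBB1 and NFE2 were called higher by the rule given below and ITGA2B lower. All 10 erythroid markers were measured, with a sum of 27239 CPM with cabozantinib and 8079 CPM in DMSO. The label of an erythroid line therefore has its markers, whereas 10 of the 14 megakaryocyte markers were at 0 counts or below 1 CPM.

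Differences were called at 1.5-fold (a log2 ratio of 0.58 in size), provided that the exact 95% interval of the ratio of the counts left out 1. By this rule 1 of the 9 genes was higher with cabozantinib (ITGB3), against 8.15% of all measured genes, and 2 were lower (ITGA2B and RUNX1), against 12.3% of all measured genes. The other 6 passed in neither direction. GP9 and CD9 did not reach 1 CPM, so the set like that of the shares is the 7 measured genes. Counts of 1 and 2 among 7 or 9 genes do not stand apart from these shares. Over all measured genes the median of the log2 ratios was 0.01. Under scaling by total counts the calls over all measured genes moved to 757 higher and 1824 lower, in place of 1022 and 1543. The calls of the 9 genes were the same ones under that scaling.

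**Figure D1:**
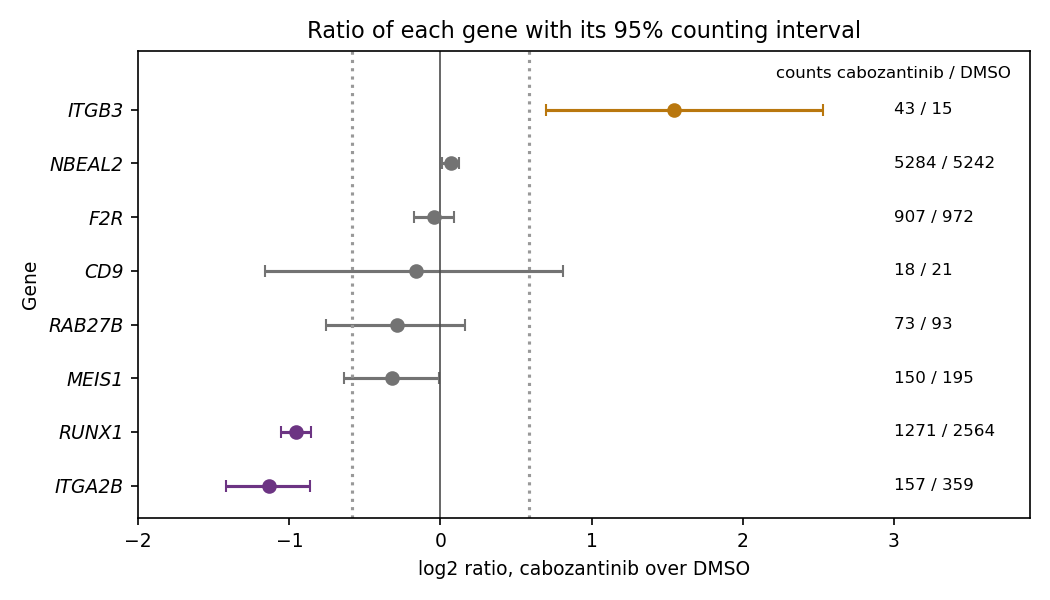
The log2 ratio of cabozantinib over DMSO (x axis) for the 8 genes with a count (y axis), with exact 95% counting intervals and the counts of each library at the right. ITGB3 lies right of the dotted line at 1.5-fold, RUNX1 and ITGA2B lie left of the line on the other side, and the points of the other 5 lie between the lines.

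The integrin genes moved in opposite directions. ITGA2B (Entrez 3674), which encodes the integrin alpha-IIb chain (CD41), had 157 counts with cabozantinib and 359 in DMSO, or 6.34 and 13.9 CPM. It was 2.19-fold lower with cabozantinib (95% interval 1.82 to 2.67), a log2 ratio of -1.13. It lies on hg19 chromosome 17 at 42449550 to 42466873 on the minus strand, with 30 exons in the deposited annotation. Among all measured genes 565 (4.51%) had a ratio as low or lower, and of those with a mean of 2 to 20 CPM 19.4% were called lower. The authors' deposited table gave ITGA2B a posterior probability of differential expression of 0.994, where 4.66% of its 17392 genes reached 0.95.

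ITGB3 (Entrez 3690), which encodes the beta-3 chain (CD61) that pairs with alpha-IIb or with alpha-V, had 43 counts with cabozantinib and 15 in DMSO, or 1.74 and 0.582 CPM. It was 2.92-fold higher with cabozantinib (1.62 to 5.78), a log2 ratio of 1.55. It lies on chromosome 17 at 45331208 to 45390077 on the plus strand, with 15 exons. The gene was measured only through the cabozantinib library, so at its DMSO level it could enter the set of measured genes only with a higher value. Among measured genes with a mean under 2 CPM, 17.4% were called higher, more than the 8.15% over all levels. In the authors' deposited table its posterior probability was 0.796, under 0.95, so this is the less firmly measured of the integrin differences.

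Set against each other within a library, the integrin genes need no scaling between libraries. ITGB3 took 21.5% of the counts of the pair with cabozantinib (43 of 200, exact 95% interval 16.0% to 27.8%) and 4.01% in DMSO (15 of 374, 2.26% to 6.53%). These intervals do not overlap. The share restates the counts given above and is no separate evidence, and ITGB3 was measured only through the cabozantinib library. How often other gene pairs separate in this way is not given here. There were 3.65 ITGA2B counts for each ITGB3 count with cabozantinib and 23.9 in DMSO. Per kilobase of gene length the ITGB3 share was 15.7% with cabozantinib and 2.77% in DMSO, so ITGB3 was the scarcer chain of the pair in both libraries.

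**Figure D2:**
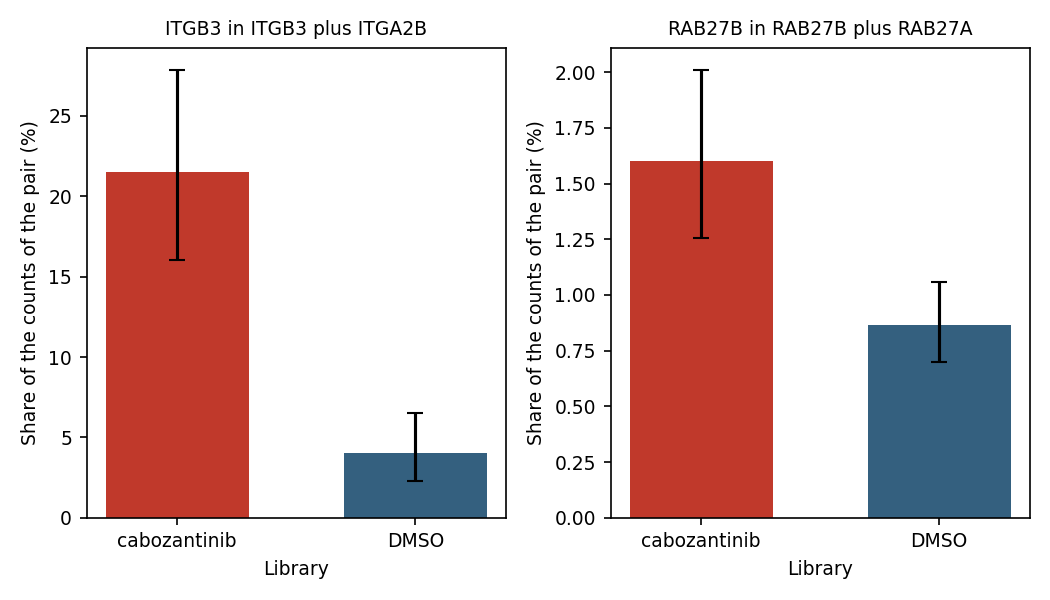
Share of the counts of a pair taken by ITGB3 (left panel, with ITGA2B) and by RAB27B (right panel, with RAB27A), in percent, in the cabozantinib and the DMSO library; bars are shares and error bars exact 95% binomial intervals. In each panel the bar of cabozantinib is the higher, at 21.5% against 4.01% and at 1.60% against 0.865%, and its interval lies above that of DMSO.

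Of related integrin chains, ITGAV, the alpha-V chain that also pairs with beta-3, stood at 49.98 CPM with cabozantinib and 67.1 CPM in DMSO, a log2 ratio of -0.43 that did not reach 1.5-fold. ITGB1, the common beta-1 chain, which pairs with other alpha chains, stood at 242 CPM with cabozantinib and 343 CPM in DMSO, a log2 ratio of -0.50, also short of 1.5-fold. Per length, ITGAV was at 6.93 RPKM (CPM per kilobase of the deposited gene length) with cabozantinib and 9.31 RPKM in DMSO, against 0.355 and 0.119 RPKM for ITGB3. Both libraries thus held many times more ITGAV than ITGB3 transcript per length.

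The gene lists below can be read against the shares over all measured genes, 8.15% higher and 12.3% lower. Of 24 other surface receptor and integrin genes of megakaryocytes and platelets, 11 were measured, 2 of them higher and 3 lower, and the median of their log2 ratios was -0.36. P2RX1, an ATP-gated channel of platelets, was 2.99-fold lower (2.43 to 3.74), at 4.60 CPM with cabozantinib and 13.8 CPM in DMSO. TBXA2R, the thromboxane receptor, was 2.88-fold lower (2.43 to 3.45), at 6.98 CPM with cabozantinib and 20.2 CPM in DMSO. CD36, a scavenger receptor found on platelets and on red cell precursors, was 1.92-fold higher (1.61 to 2.31), and ITGA4, an integrin alpha chain, 1.51-fold higher (1.08 to 2.15). Under total-count and upper-quartile scaling 1 gene of this list was called higher, not 2. With no filter on low counts the median was -0.03.

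Several of these receptors are also borne by other blood cells, and markers of those cells differed as well. All 4 measured of 10 granulocyte and monocyte markers were lower, with a sum over the list of 31.1 CPM with cabozantinib and 95.1 CPM in DMSO, while MPO, ELANE and CEBPE had 0 counts in both. Both measured lymphocyte markers of 7 were lower (3.23 CPM in sum with cabozantinib and 11.2 CPM in DMSO, MS4A1 at 0 counts). Of 8 fibroblast and epithelial markers 5 were measured and 2 were lower (394 CPM in sum with cabozantinib and 535 CPM in DMSO, LUM at 0 counts). The 10 erythroid markers were all called higher, HBA1 and HBG1 among them, which share reads with near-identical copies. The part of these shifts in the results for the 9 genes was not tested. Both libraries came from K562 cells, so the markers were read in that line and not in other cell types. Fewer K562 cells with a transcript cannot be told apart from less of it per cell in bulk libraries.

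GP9 (Entrez 2815, chromosome 3, 128779645 to 128781253, 3 exons), the small glycoprotein IX subunit of the von Willebrand factor receptor, had 0 counts in both libraries. At this depth 0 counts allow up to 3, or 0.121 CPM with cabozantinib and 0.116 CPM in DMSO. The other subunits of the receptor, GP1BA, GP1BB and GP5, also had 0 counts in both. The complex was therefore not detectable in either library, and no direction can be given for it. The 250 bases before the listed start of GP9 are shown beside those of the lowered genes ITGA2B and RUNX1. They are in RefSeq's GRCh38.p14 build and on the strand of each gene. Each gene has 1 start in the promoter set used, and for RUNX1 and GP9 the window before it lies inside the span of the gene. RUNX1 spans 34787801 to 35049302 on the minus strand, so its window is not at the outer start of the gene. Windows before any other start are not shown. The words in capitals are those bound by GATA factors (AGATAA or AGATAG or TGATAA or TGATAG), by ETS factors (AGGAAG or CGGAAG) or by RUNX factors (TGTGGT), read on both strands.
ITGA2B, chr17:44389650-44389899, minus strand: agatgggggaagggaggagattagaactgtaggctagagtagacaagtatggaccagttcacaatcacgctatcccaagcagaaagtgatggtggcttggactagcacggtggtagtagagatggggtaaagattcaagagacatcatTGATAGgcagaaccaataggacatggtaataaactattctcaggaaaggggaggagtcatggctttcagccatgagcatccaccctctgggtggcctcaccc
RUNX1, chr21:34888700-34888949, minus strand: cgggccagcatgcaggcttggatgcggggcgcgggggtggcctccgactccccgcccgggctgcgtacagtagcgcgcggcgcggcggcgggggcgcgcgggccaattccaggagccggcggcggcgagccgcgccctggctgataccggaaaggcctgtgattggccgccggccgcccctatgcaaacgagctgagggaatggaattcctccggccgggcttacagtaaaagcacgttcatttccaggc
GP9, chr3:129060529-129060778, plus strand: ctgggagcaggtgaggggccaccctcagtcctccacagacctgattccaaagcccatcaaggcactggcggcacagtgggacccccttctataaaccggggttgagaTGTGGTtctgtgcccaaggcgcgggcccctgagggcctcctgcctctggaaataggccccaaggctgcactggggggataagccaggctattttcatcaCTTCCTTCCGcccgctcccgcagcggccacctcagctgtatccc
The ITGA2B window held 1 GATA word, the RUNX1 window none of the words, and the GP9 window 1 RUNX word and 2 ETS words that overlap each other. Of 35116 RefSeq windows of 250 bases 22.3% held a GATA word, 40.8% an ETS word and 11.0% a RUNX word. A match is a description of letters and not a bound site.

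F2R (Entrez 2149, chromosome 5, 76011868 to 76031595, 2 exons) encodes PAR1, the thrombin receptor that couples clotting to platelet activation. It had 907 counts with cabozantinib and 972 in DMSO, or 36.6 and 37.7 CPM. The log2 ratio was -0.04 with an interval of -0.18 to 0.09, so a change of 1.5-fold in either direction lies outside what counting error allows for these libraries. Of its relatives, F2RL3 (PAR4, the other thrombin receptor of human platelets) stood at 16.8 CPM with cabozantinib and 14.1 CPM in DMSO, a log2 ratio of 0.25 (0.05 to 0.46). F2RL1 (PAR2) had 8 counts with cabozantinib and 4 in DMSO. Of 16 relatives of F2R, G proteins and downstream genes, 12 were measured, 0 were higher and 1 was lower. That gene was PLCB2, a phospholipase C of blood cells, 2.12-fold lower (1.62 to 2.81), at 3.23 CPM with cabozantinib and 6.87 CPM in DMSO. The median log2 ratio of the list was -0.00.

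CD9 (Entrez 928, chromosome 12, 6309555 to 6347427, 8 exons) encodes a tetraspanin, a small membrane protein that organises integrins and other partners at the surface of platelets. It had 18 counts with cabozantinib and 21 in DMSO, or 0.727 and 0.815 CPM, below the 1 CPM set for a measured gene. The log2 ratio was -0.16 with an interval of -1.16 to 0.81, which reaches past 1.5-fold in both directions, so a difference of that size was not detectable at this depth. Its close relative CD81 was abundant, at 162 CPM with cabozantinib and 137 CPM in DMSO, with a log2 ratio of 0.24 that did not reach 1.5-fold.

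Of 25 other tetraspanins and tetraspanin partners 21 were measured, 3 of them higher and 5 lower, and the median of their log2 ratios was -0.09. TSPAN32, a tetraspanin of blood cells, was 3.74-fold higher (2.64 to 5.49), at 5.85 CPM with cabozantinib and 1.55 CPM in DMSO. TSPAN17 was 2.38-fold higher (2.25 to 2.52). TSPAN9, a tetraspanin of platelets, was 2.56-fold lower (1.63 to 4.23) on 26 counts with cabozantinib and 70 in DMSO, and CD53, a leukocyte tetraspanin, 2.52-fold lower (2.18 to 2.92).

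RUNX1 (Entrez 861, chromosome 21, 36160098 to 36421595, minus strand, 10 exons) encodes the DNA-binding subunit of a core-binding factor that megakaryocyte maturation needs. It had 1271 counts with cabozantinib and 2564 in DMSO, or 51.3 and 99.5 CPM. RUNX1 was 1.94-fold lower with cabozantinib (1.81 to 2.08), a log2 ratio of -0.96. Of measured genes with a mean of 20 CPM or more, 6.5% were called lower, and 781 measured genes of any level (6.23%) had a ratio as low or lower. RUNX1 passed 1.5-fold and not 2-fold, the size at which 2.71% of measured genes were higher and 5.76% lower. The authors' deposited table gave it a posterior probability of 0.975.

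CBFB, the partner that stabilises RUNX proteins on DNA, was 1.54-fold lower (1.44 to 1.65), just past the 1.5-fold rule. It stood at 56.4 CPM with cabozantinib and 86.8 CPM in DMSO. In the authors' deposited table its posterior probability was 0.174, under 0.95, so this call is weaker than that of RUNX1. The paralog RUNX2 had 6 counts with cabozantinib and 85 in DMSO, 12.6-fold lower (6.005 to 38.1), and RUNX3 had 2 and 3 counts. RUNX1 took 99.4% of the counts of the 3 RUNX genes with cabozantinib and 96.7% in DMSO, so it was nearly the sole RUNX gene read in both. Of the 6 genes on the list of RUNX partners, 4 were measured, 2 of them lower (RUNX2 and CBFB) and 0 higher, and the median of their log2 ratios was -0.10. That median was 0.43 with a filter of 5 CPM, which removes RUNX2.

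MEIS1 (Entrez 4211, chromosome 2, 66662532 to 66799891, 13 exons) encodes a homeodomain factor that acts with PBX and HOXA proteins in stem cells and megakaryocytes. It had 150 counts with cabozantinib and 195 in DMSO, or 6.06 and 7.57 CPM. Its log2 ratio was -0.32 (-0.64 to -0.01), short of 1.5-fold, and the intervals of the levels overlapped. Among its usual partners, PBX3 had 14 counts with cabozantinib and 15 in DMSO, and HOXA9 had 0 in both. Of 12 genes on the list of MEIS, PBX and HOXA genes 3 were measured, and 0 were higher or lower. Their median log2 ratio was 0.22.

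Other regulators of the lineage did not share one direction. Of 21 on the list 19 were measured, 6 of them higher (31.6%) and 3 lower (15.8%), and the median of their log2 ratios was 0.03 (-0.05 under scaling by total counts). LMO2, an adaptor of the GATA1 and TAL1 complex, was 2.64-fold higher (2.5 to 2.8), at 167 CPM with cabozantinib and 63.1 CPM in DMSO. ZFPM1, which encodes the GATA1 cofactor FOG1, was 2.52-fold higher (2.25 to 2.82). Both serve red cells as well as megakaryocytes. HHEX, a homeobox gene of blood progenitors, was 2.82-fold lower (2.64 to 3.02), at 47.4 CPM with cabozantinib and 134 CPM in DMSO, and ETS1 had 5 counts with cabozantinib and 35 in DMSO. GATA1 stood at 298 CPM with cabozantinib and 227 CPM in DMSO, a log2 ratio of 0.39 that did not reach 1.5-fold. FLI1, an ETS factor of megakaryocytes, had 0 counts in both libraries.

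NBEAL2 (Entrez 23218, chromosome 3, 47021173 to 47051193, 54 exons) encodes a BEACH-domain protein that platelets need to form alpha granules. It had 5284 counts with cabozantinib and 5242 in DMSO, or 213 and 203 CPM. The log2 ratio was 0.07 (0.01 to 0.12), far inside 1.5-fold, and it was -0.016 under scaling by total counts, so no direction can be given. Of its relatives, LRBA, named here after its values were seen, stood at 181 CPM with cabozantinib and 182 CPM in DMSO, a log2 ratio of -0.01 (-0.07 to 0.05). LYST, mutated in Chediak-Higashi syndrome, stood at 3.11 CPM with cabozantinib and 4.58 CPM in DMSO, a log2 ratio of -0.56 short of 1.5-fold, and NBEA had 12 counts with cabozantinib and 1 in DMSO.

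Of 22 genes of granule cargo and alpha granule biogenesis 11 were measured, 1 of them higher and 0 lower, and the median of their log2 ratios was -0.17. The higher gene was GFI1B, 2.41-fold (2.28 to 2.55), a transcriptional repressor that is counted in the list of regulators too. PF4, VWF, F5 and F13A1 had 0 counts in both libraries. Other cargo genes were read well, and are named here after their values were seen. SRGN, the proteoglycan core of granules, stood at 125 CPM with cabozantinib and 178 CPM in DMSO. TGFB1, a growth factor, stood at 143 CPM with cabozantinib and 152 CPM in DMSO, and TIMP1, a protease inhibitor, at 90.0 CPM with cabozantinib and 131 CPM in DMSO. None of the 3 reached 1.5-fold. Under scaling by total counts 3 genes of this list were called lower.

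RAB27B (Entrez 5874, chromosome 18, 52495840 to 52557207, 6 exons) encodes a small GTPase that docks secretory granules in platelets. It had 73 counts with cabozantinib and 93 in DMSO, or 2.95 and 3.61 CPM. The log2 ratio was -0.29 with an interval of -0.75 to 0.17, so neither no change nor a fall of 1.5-fold was outside counting error. Its paralog RAB27A was far more abundant and lower, at 181 CPM with cabozantinib and 414 CPM in DMSO, 2.28-fold (2.20 to 2.36). RAB27B took 1.60% of the counts of the pair with cabozantinib (73 of 4560, 1.26% to 2.01%) and 0.865% in DMSO (93 of 10748, 0.699% to 1.06%). These intervals do not overlap, and RAB27B took the larger share with cabozantinib, although RAB27B itself was called in neither direction while RAB27A was lower. The share restates the counts of both genes and is no separate evidence. For this pair too, how often other gene pairs separate is not given here. Per length RAB27A stood at 59.4 RPKM with cabozantinib and 135 RPKM in DMSO, against 2.21 and 2.71 RPKM for RAB27B.

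Of 43 genes of dense granules, RAB27 partners and the secretion machinery 34 were measured, 3 of them higher and 2 lower, and the median of their log2 ratios was -0.07. SYTL1, a synaptotagmin-like protein that binds RAB27, was 3.46-fold lower (2.52 to 4.90), at 1.94 CPM with cabozantinib and 6.75 CPM in DMSO. It and RAB27A were the 2 lower genes. HPS6, a subunit of a complex that builds lysosome-related organelles, was 1.91-fold higher (1.60 to 2.27), and RAB3D, another secretory GTPase, 1.61-fold higher (1.24 to 2.10).

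Genes that act downstream of these receptors and in the last steps of platelet formation were counted as context. Of 22 genes that activate integrins 21 were measured, 0 of them higher and 3 lower, and the median of their log2 ratios was -0.18. FERMT2, a kindlin, was 4.31-fold lower (2.59 to 7.95) on 17 counts with cabozantinib and 78 in DMSO. The far more abundant kindlin FERMT3, named here after its values were seen, did not reach 1.5-fold. FERMT3 stood at 230 CPM with cabozantinib and 281 CPM in DMSO, a log2 ratio of -0.29. LCP2, the signalling adaptor SLP-76, was 4.22-fold lower (3.59 to 5.01), at 7.06 CPM with cabozantinib and 29.9 CPM in DMSO. All 20 genes of the proplatelet cytoskeleton were measured, 4 of them higher and 4 lower, and the median of their log2 ratios was -0.05. TUBB1, the beta-tubulin of platelets, was 9.89-fold higher (8.79 to 11.2), and SPTB, an erythroid spectrin, 1.82-fold higher (1.76 to 1.89). TPM4, a tropomyosin, was 2.99-fold lower (2.71 to 3.32), and SPTAN1, a non-erythroid spectrin, 2.28-fold lower (1.98 to 2.65). Under scaling by total counts 2 genes of this list were called higher and 6 lower.

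**Figure D3:**
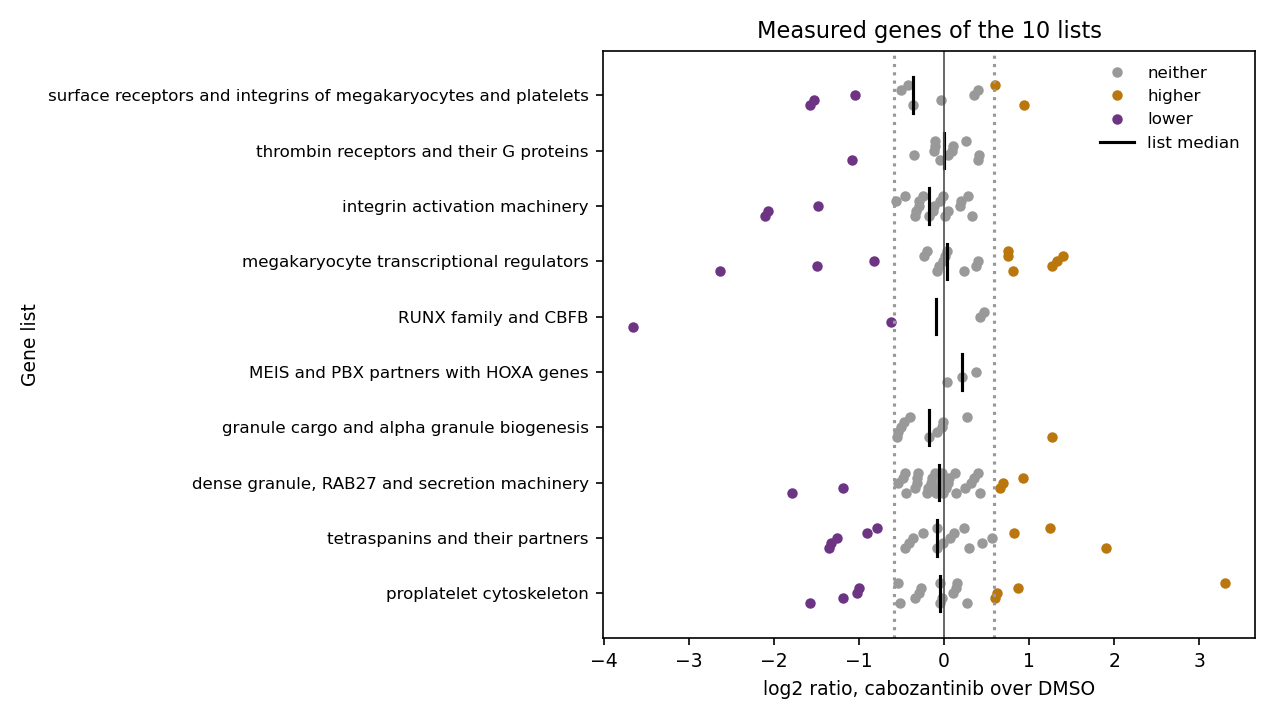
The log2 ratio of cabozantinib over DMSO (x axis) for each measured gene of the 10 gene lists (y axis), coloured by call, with a black bar at each list median and dotted lines at 1.5-fold. Every list median lies between the dotted lines, and TUBB1 (3.31) and RUNX2 (-3.66) are the points farthest to the right and left.

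Levels of different genes were compared per length, in RPKM with exact 95% Poisson intervals. With cabozantinib the order was NBEAL2 (24.2), F2R (9.61), RUNX1 (6.43), RAB27B (2.21), MEIS1 (1.90), ITGA2B (1.90), CD9 (0.590), ITGB3 (0.355) and GP9 (0 counts). In that library the intervals of RAB27B (1.74 to 2.78), MEIS1 (1.61 to 2.23) and ITGA2B (1.62 to 2.22) overlapped, as did those of CD9 (0.350 to 0.933) and ITGB3 (0.257 to 0.478). In DMSO the order was NBEAL2 (23.0), RUNX1 (12.5), F2R (9.90), ITGA2B (4.18), RAB27B (2.71), MEIS1 (2.38), CD9 (0.662), ITGB3 (0.119) and GP9 (0 counts). There RAB27B and MEIS1 overlapped (2.19 to 3.32 and 2.06 to 2.74), while ITGA2B (3.76 to 4.63) stood clear of both. RUNX1 ranked above F2R in DMSO and below it with cabozantinib, and in both libraries their intervals were apart. ITGB3 in DMSO (0.0666 to 0.196) was not separable from the limit of 0.136 RPKM that 0 counts allow for GP9, a shorter gene. That interval lay above the limit of 0.0238 RPKM that 0 counts would allow for ITGB3 itself in DMSO.

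**Figure D4:**
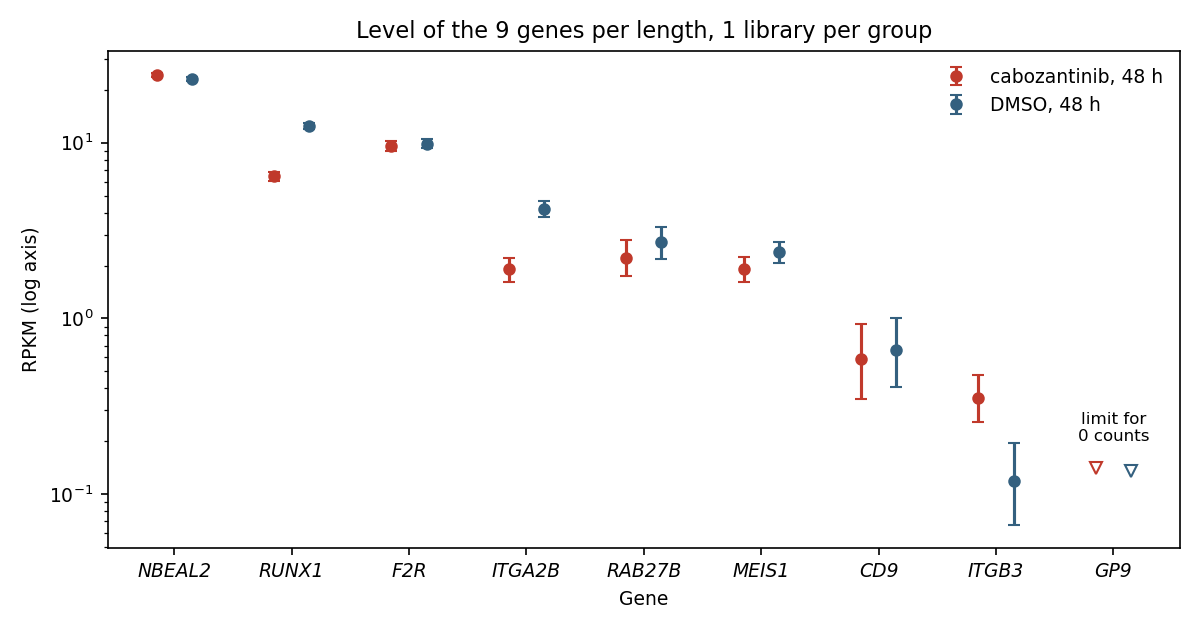
RPKM on a log axis (y axis) of the 9 genes (x axis, ordered by level in DMSO) in the cabozantinib library (left point of each pair) and the DMSO library (right point), with exact 95% Poisson intervals; open triangles are the limits for 0 counts. The intervals are apart for the called genes RUNX1, ITGA2B and ITGB3 and overlap for the other 5 genes that had counts. The share of all measured genes with intervals apart is not given here. By the 1.5-fold rule 8.15% of all measured genes were called higher and 12.3% lower. ITGB3 was measured only through the cabozantinib library.

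Among all measured genes, NBEAL2 and F2R lay near the middle of the ratios, with 56.4% and 44.8% of genes at or below them. MEIS1 and RAB27B had 22.9% and 24.7% at or below. For ITGB3, which was measured only through the cabozantinib library, 111 measured genes (0.885%) had a ratio as high or higher. In the authors' deposited table the posterior probability of differential expression was 0.0191 or less for F2R, CD9, MEIS1, NBEAL2 and RAB27B. None of the 9 genes shared exon bases with another gene in the deposited annotation, so their counts do not rest on overlapping exons.

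**Figure D5:**
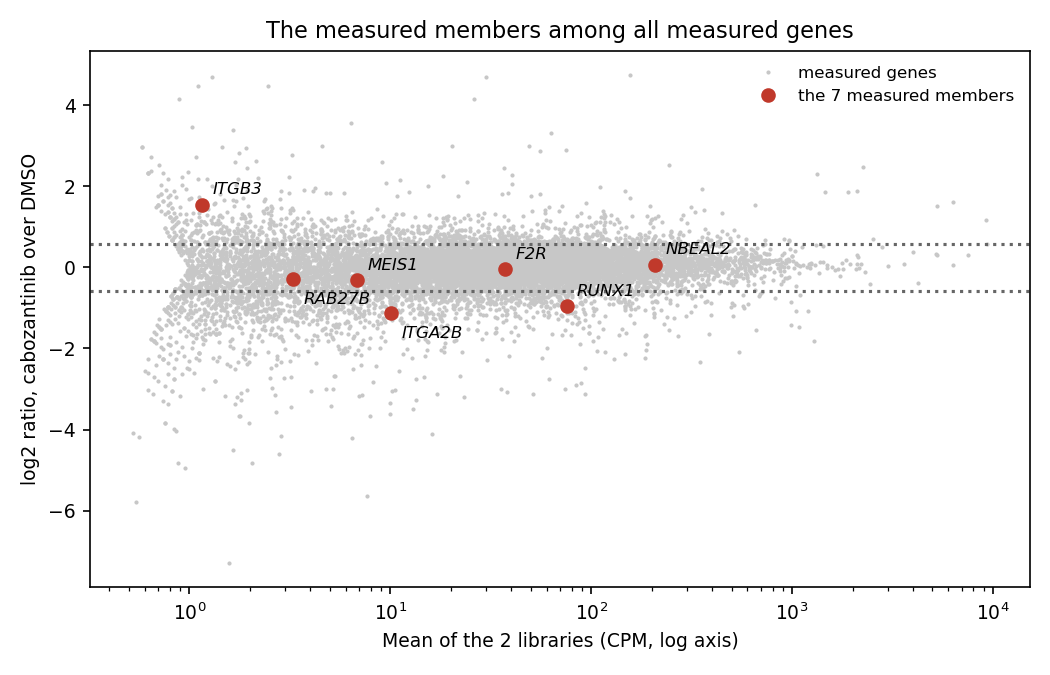
The log2 ratio of cabozantinib over DMSO (y axis) against the mean level in CPM on a log axis (x axis) for 12536 measured genes (grey) and the 7 measured members (red), with dotted lines at 1.5-fold. ITGB3 sits in the wide scatter near 1 CPM, while ITGA2B and RUNX1 lie below the lower line.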

How the data were processed

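RNA was measured in 1 library per group, grouped by treatment label. Libraries were strand-specific TruSeq libraries of column-purified total RNA, per the labels' protocols. The deposited counts are whole-number counts per Entrez gene, aligned with Rsubread to hg19 per the file headers; the submitters' processing notes also name GRCh37. Whether strand was used, and how multiply aligned reads were counted, was not given in the sources used here. The authors' deposited table holds a fold ratio and a posterior probability, a score between 0 and 1, per gene; the ratio runs cabozantinib over DMSO, as read from the counts. Another 4 columns there name no sample and were left out. GP9 has no row there and was matched by RefSeq symbol.

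Libraries were scaled with TMM (edgeR 4.0.16, R 4.3.3; factors 0.971 for cabozantinib and 1.03 for DMSO). Log2 ratios used a pseudocount of 0.5. Intervals of ratios, shares (Clopper-Pearson) and levels (Poisson) are exact 95% intervals. They cover counting error only, since each group held 1 library. Reads without molecular identifiers are not independent molecules, so the intervals can be too narrow even for counting error. A count of 0 allows up to 3 counts. With 1 library per group no p-value was computed. The calculation of ratios and intervals was checked on simulated Poisson counts with planted changes. These held no variation between replicates and no duplicate reads, so they cannot show that the calls would recur. Analyses ran in Python 3.11.15 with scipy 1.17.1.

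The 9 genes, the 10 gene lists (211 entries, all matched) and the 5 marker lists were chosen with earlier results of these data known. Genes named were the 9, up to 2 called genes in each direction per list, and 18 relatives and partners whatever their values, all of which are in the lists; some of these are not reported here. Alternatives covered scaling (upper quartile, total counts, or size factors of DESeq2 1.42.0), pseudocount, filter, size threshold, the deposited fold and length. Promoter sequences are from RefSeq, GRCh38.p14, and were found for 7 of the 9 genes.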

Additional observations from a re-analysis of the deposited data

How the results depend on the processing

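No paired analysis was possible because each group held 1 library, and for the same reason no library could be left out. Of 372 values recomputed under alternatives 348 kept their call or stayed within their counting interval or within 1.5 times the reported count. Many of these could not move. The filter does not enter a gene's ratio or call, and the threshold does not enter ratios or list medians. ITGB3 was counted as kept under the 5 CPM filter, where it was not measured. The 348 is therefore not a measure of robustness. The log2 ratios ranged from -1.22 to -1.13 for ITGA2B, from -1.04 to -0.95 for RUNX1 and from 1.46 to 1.58 for ITGB3 over 11 settings. Only scaling, pseudocount and the deposited folds could move these ratios, and the deposited folds come from the same libraries. The threshold and filter settings repeat the main value. With the 2-fold threshold RUNX1, at -0.96, was no longer called, which left 1 of the 9 genes lower; 340 genes of all were then higher (2.71%) and 722 lower (5.76%). With a filter of 5 CPM ITGB3 was not measured, leaving 0 of the 9 genes higher, and 1022 of all genes were lower. Under scaling by total counts NBEAL2 had a log2 ratio of -0.016. Over the lists, the 2-fold threshold left 0 surface receptors higher, 3 regulators higher, 1 RUNX partner lower, 0 secretion genes higher, 3 tetraspanins lower and 1 cytoskeleton gene higher. The 5 CPM filter left 1 surface receptor higher, 1 RUNX partner lower and a RUNX list median of 0.43. Scaling by total counts gave 1 surface receptor higher, 3 granule cargo genes lower and 2 cytoskeleton genes higher with 6 lower, upper-quartile scaling 1 surface receptor higher, and no filter 2 granule cargo genes higher. Per kilobase the ITGB3 share with cabozantinib was 15.7%, and the RAB27B share 3.60% with cabozantinib and 1.96% in DMSO. Depth limits CD9, ITGB3 and RAB27B, each with fewer than 100 counts in both libraries.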

Other observations

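Some called genes of the lists were not named by the rule and are described here after their values were seen. The tetraspanin CD37, a leukocyte protein like CD53, was lower by a log2 ratio of -1.26 (-1.62 to -0.92), and IGSF8, a partner of CD9 and CD81, by -0.79 (-1.01 to -0.58). FYB1, an adaptor that binds LCP2, was lower by -1.49 (-1.71 to -1.27), at 9.45 CPM with cabozantinib and 26.5 CPM in DMSO. ITGA5, the alpha chain of the fibronectin receptor, was lower by -1.04 (-1.11 to -0.98), at 121 CPM with cabozantinib and 249 CPM in DMSO.

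Among regulators shared by red cells and megakaryocytes, TAL1 (log2 ratio 0.76), LDB1 (0.81) and NFE2 (0.75) were higher, and MYB (-0.82) was lower. NFE2 stood at 448 CPM with cabozantinib and 267 CPM in DMSO. HPS1, which acts with other Hermansky-Pudlak genes in dense granule formation, was higher by 0.66 (0.55 to 0.77). GP6, the collagen receptor of platelets, had 5 counts with cabozantinib and 17 in DMSO, below 1 CPM in both.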
